A study of Mus musculus with 8 samples.

Results

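The claudins and the other main tight junction proteins were followed through 8 RNA-Seq libraries of mouse medullary thymic epithelial cells (mTECs). The set held 10 of the 24052 gene symbols counted in each library: the claudin genes *Cldn1*, *Cldn3*, *Cldn4*, *Cldn6*, *Cldn7*, *Cldn9* and *Cldn12*, occludin (*Ocln*), zonula occludens 1 (*Tjp1*) and junctional adhesion molecule A (*F11r*). These genes were chosen by symbol with their values in the mutant and WT cells already known, so that every difference between the cell types given for them is a description and carries no test. The WT cells were the mTEC 3.10 line, of C57BL/6 origin and at passage 2, and the mutant cells were its Crispr-Cas9 clone E6. The labels give the genotype of E6 as *Aire* +/-, while the study's methods describe mutations in exon 3 of both *Aire* alleles. E6 is a single clone, so that an effect of the *Aire* mutations and a property of that clone cannot be told apart. Each cell type was sequenced before adhesion, without thymocytes, and after adhesion, from co-culture for 12 h with 50 thymocytes per mTEC, with 2 libraries in each of the 4 groups. The labelled culture time was 24 h for WT after replicate 2, E6 before replicate 1 and E6 after replicate 1, and 12 h for the other libraries. For E6 before adhesion the written protocol speaks of co-culture, against the titles and source names, which were followed here. No label says that the 2 libraries of a group came from separate cultures, so p-values measure the spread between these samples, which may be technical.

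Tight junctions seal the space between neighbouring epithelial cells. Claudins are membrane proteins whose strands close that space or form ion-selective pores in it, occludin and junctional adhesion molecules sit beside them in the membrane, and zonula occludens proteins join their cytoplasmic ends to actin. Which claudins a cell makes sets the tightness and the ion selectivity of its junctions. In the thymus, claudin 3 and claudin 4 are used as surface markers of the medullary epithelial lineage that gives rise to cells expressing *Aire*.

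The genes lie on 7 chromosomes (GRCm38, GENCODE vM21), and 2 pairs are neighbours. *Cldn4* (chromosome 5, 134945119 to 134946934, minus strand, 1 exon) and *Cldn3* (chromosome 5, 134986214 to 134987472, plus strand, 1 exon) are 39279 bases apart. *Cldn6* (chromosome 17, 23679249 to 23682446, plus strand) and *Cldn9* (chromosome 17, 23682584 to 23684026, minus strand, 1 exon) point towards each other with 137 bases between them. The others are *Cldn12* (chromosome 5, 5489537 to 5514958, minus strand), *Cldn7* (chromosome 11, 69964779 to 69967885, plus strand), *Cldn1* (chromosome 16, 26356642 to 26371841, minus strand), *Ocln* (chromosome 13, 100496507 to 100552718, minus strand), *Tjp1* (chromosome 7, 65296165 to 65527781, minus strand) and *F11r* (chromosome 1, 171437535 to 171464603, plus strand).

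The 250 bases before the transcription start are shown for 3 claudins that differed widely in level: *Cldn4*, the most abundant, its neighbour *Cldn3*, which was almost without counts, and *Cldn1*, which was higher in E6 than in WT. The sequences are from RefSeq on GRCm38.p6, each read 5′ to 3′ on the strand of the gene, with the motifs described after them in capitals. The *Cldn4* window is chr5:134946935-134947184 on the minus strand, the *Cldn3* window chr5:134985964-134986213 on the plus strand and the *Cldn1* window chr16:26371840-26372089 on the minus strand.
Cldn4: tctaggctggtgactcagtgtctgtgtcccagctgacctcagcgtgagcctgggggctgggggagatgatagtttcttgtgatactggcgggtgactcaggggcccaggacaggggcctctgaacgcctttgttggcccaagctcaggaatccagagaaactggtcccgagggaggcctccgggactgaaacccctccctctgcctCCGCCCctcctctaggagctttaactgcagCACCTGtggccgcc
Cldn3: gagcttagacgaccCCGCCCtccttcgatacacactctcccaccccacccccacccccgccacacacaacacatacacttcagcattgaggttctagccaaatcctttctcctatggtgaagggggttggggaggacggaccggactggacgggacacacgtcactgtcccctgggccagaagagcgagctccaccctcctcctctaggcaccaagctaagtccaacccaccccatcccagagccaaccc
Cldn1: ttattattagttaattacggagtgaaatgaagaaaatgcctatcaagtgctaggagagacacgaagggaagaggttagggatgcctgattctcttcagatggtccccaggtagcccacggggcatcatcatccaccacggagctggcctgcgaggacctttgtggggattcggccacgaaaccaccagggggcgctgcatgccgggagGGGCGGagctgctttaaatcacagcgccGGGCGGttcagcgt
Motifs were searched on both strands in the windows of the 9 genes with an entry in the RefSeq table. The RefSeq start used for *Tjp1* lay 156537 bases from the GENCODE start, so its window was inside the gene span given above. For *Cldn6* the 2 starts were 116 bases apart. The E-box CACCTG was found in the windows of *Cldn4*, *Cldn6* and *F11r*, and in 17.2% of 32851 mouse promoter windows of the same length. The GC box GGGCGG was found for 7 of the 9 genes (*Cldn1*, *Cldn3*, *Cldn4*, *Cldn6*, *Ocln*, *Tjp1* and *F11r*) and in 32.7% of all windows. The CCAAT box was found for *F11r* and in 33.8% of all windows. No match was found in the 9 windows for the TATA box TATAAA (12.4% of all windows) or for AACCGGTT, the core bound by grainyhead-like factors (0.116% of all windows). Near the start, *Cldn4* carried the E-box and 1 GC box, *Cldn1* carried 2 GC boxes, and the single GC box of *Cldn3* lay near the far end of its window. These matches describe the letters of the windows and not factor binding.

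Each library held 13506610 to 20145154 gene counts. Levels are given as CPM, the gene counts scaled to a common library total, and 3 counts, taken as the smallest level the depth could show, were 0.149 to 0.222 CPM. Such floors and the counting intervals below cover counting error only. Of the 10 genes, 9 passed the filter on low counts and were tested among 11672 genes, and *Cldn3* did not. WT after replicate 1 stood apart, with 66.7% of its alignments assigned to genes where the others had 75.7% to 78.8%. Its log2 counts, taken against the mean of the libraries, had a slope of -0.457 per 10% of exonic GC, and the others had slopes of -0.023 to 0.132. *Aire* itself had 0 counts in all libraries before adhesion and 0 or 3 counts after it, so that its level could not check the labels. *Epcam*, *Cdh1* and 4 keratins, which mark epithelial cells, had counts in every library and summed to 3732 to 5366 CPM. Of 9 thymic epithelial markers, 4, *Aire* among them, were at 0 in each library before adhesion. The 9 summed to 289 to 638 CPM, most of it *Krt14*, which is also 1 of the 4 keratins. *Krt14* made up 251 of 289 CPM in WT after replicate 1 and 594 of 638 CPM in WT before replicate 2. Of 15 thymocyte markers with counts tabulated, the sum was 0.264 to 0.966 CPM in libraries before adhesion, 12.6 and 14.6 CPM in WT after adhesion and 87.9 and 109 CPM in E6 after adhesion. Fibroblast markers summed to 1.16 to 16.4 CPM and endothelial markers to 0 to 2.27 CPM. In E6 after replicate 1, where both sums were highest, *Thy1*, which is on the thymocyte list too, made up 13.6 of 16.4 CPM and *Pecam1* 1.90 of 2.27 CPM. In bulk RNA, a change in the number of cells of a type and a change in the RNA of each cell cannot be told apart.

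The abundant claudins of the line were *Cldn4*, *Cldn6*, *Cldn7* and *Cldn12*, and all 4 had higher counts in E6. Claudin 4, a claudin that tightens junctions and binds Clostridium perfringens enterotoxin, had 545 and 567 CPM in WT before adhesion, 319 and 586 CPM in WT after adhesion, 935 and 808 CPM in E6 before adhesion and 762 and 772 CPM in E6 after adhesion. Every E6 library lay above every WT library, and WT after replicate 1 was far below the other 3 WT libraries. The log2 fold change (FC) of E6 against WT for *Cldn4*, averaged over conditions in edgeR's fit, was 0.69 ± 0.16 (SE, 4 libraries against 4). By CPM per kb of exon its rank lay between 36 and 159 among 15690 genes.

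Claudin 6, known from embryonic epithelia and stem cells, separated the cell types in the same way. Its levels were 230 and 246 CPM in WT before, 106 and 249 CPM in WT after, 345 and 372 CPM in E6 before and 335 and 318 CPM in E6 after adhesion. The WT libraries again ended below the E6 libraries, and the lowest was WT after replicate 1. The fitted log2 FC of *Cldn6* between the cell types was 0.72 ± 0.22 (SE).

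Claudin 7, a basolateral claudin that binds EpCAM, had 87.2 and 86.3 CPM in WT before, 44.9 and 96.0 CPM in WT after, 113 and 123 CPM in E6 before and 110 and 114 CPM in E6 after adhesion. Its log2 FC of E6 against WT was 0.54 ± 0.19 (SE), below the limit of 1.5-fold used for DE mRNAs here. Claudin 12, a claudin without the usual PDZ-binding end and linked to paracellular calcium transport, had 224 and 207 CPM in WT before, 258 and 211 CPM in WT after, 285 and 278 CPM in E6 before and 259 and 267 CPM in E6 after adhesion. The lowest E6 value of *Cldn12* was just above the highest WT value, and the log2 FC was 0.25 ± 0.11 (SE).

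*Cldn4*, *Cldn6* and *Cldn7* have 54.4% to 57.0% GC in their exons and were lowest in WT after replicate 1, the library that fell with GC content. *Cldn12* has 44.5% GC and was highest among the WT libraries there. Without that library, the log2 FC of E6 against WT was 0.54 for *Cldn4*, 0.52 for *Cldn6*, 0.36 for *Cldn7* and 0.38 for *Cldn12*. With a GC correction of every library, the 4 values were 0.59, 0.67, 0.45 and 0.34. The higher level in E6 was kept for each of these 4 genes.

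**Figure D1:**
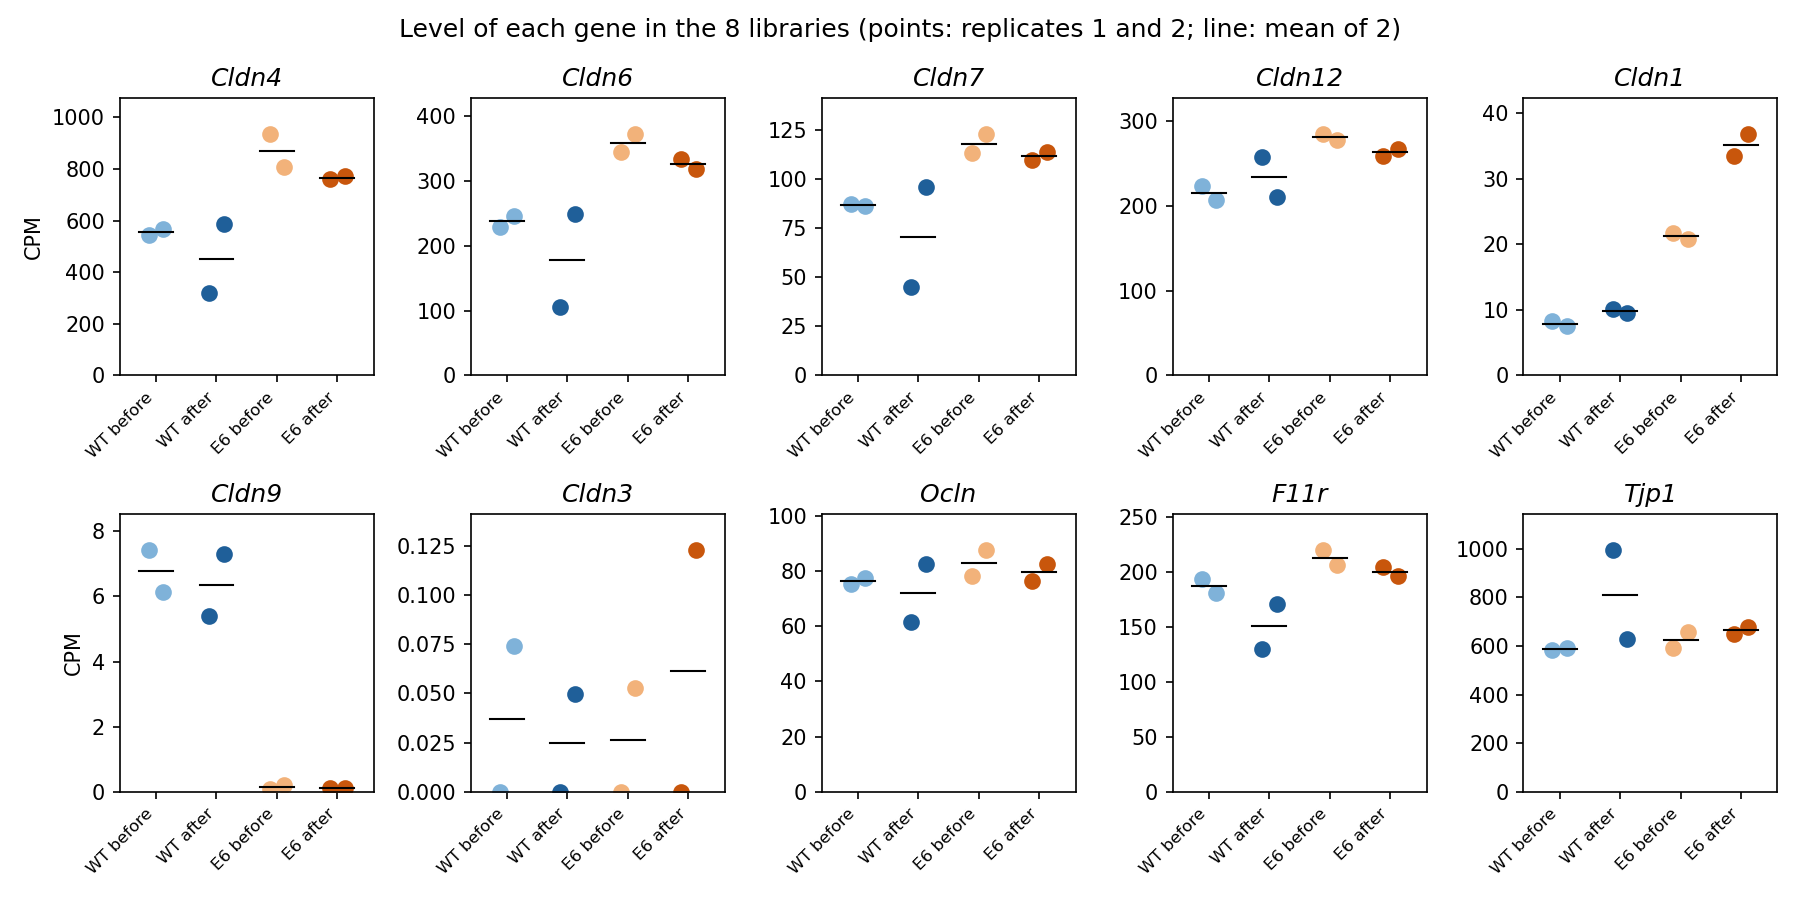
CPM of each of the 10 genes (vertical axes, each from 0) in the 8 libraries by group, with points for replicates 1 and 2 and a line for their mean. *Cldn1* is higher and *Cldn9* near 0 in E6, *Cldn3* stays below 0.13 CPM throughout, and in WT after adhesion replicate 1 is low for *Cldn4*, *Cldn6* and *Cldn7* and high for *Tjp1*.

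Claudin 1, the claudin that the skin barrier depends on, was a minor claudin of these cells with a large difference between the cell types. WT libraries held 8.32 and 7.48 CPM of *Cldn1* before and 10.1 and 9.48 CPM after adhesion. E6 libraries held 21.8 and 20.9 CPM before and 33.5 and 36.8 CPM after adhesion. The highest WT library was thus below the lowest E6 library, and within E6 both libraries after adhesion lay above both libraries before it. The log2 FC of E6 against WT was 1.45 ± 0.15 (SE) before adhesion, 1.78 ± 0.15 (SE) after it and 1.61 ± 0.11 (SE) averaged, which is a 3.06-fold difference. Without WT after replicate 1 the averaged value was 1.68. After adhesion, E6 exceeded WT at both labelled culture times, with 36.8 against 10.1 CPM at 12 h and 33.5 against 9.48 CPM at 24 h.

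Claudin 9, best known from the sensory epithelium of the inner ear, was nearly lost from E6. The WT libraries had 122 and 83 counts before adhesion and 81 and 147 counts after it, or 7.41, 6.15, 5.39 and 7.30 CPM. The E6 libraries had 1 and 4 counts before and 2 and 2 counts after adhesion, or 0.069, 0.211, 0.123 and 0.123 CPM. With counts pooled over libraries, 433 in WT and 9 in E6, the level in WT was 48.8 times that in E6, with an exact 95% counting interval of 25.5 to 107. Before adhesion this ratio was 45.7 (19.3 to 142) and after it 52.9 (20.4 to 196). The fitted log2 FC was -5.55 ± 0.29 (SE), a value that depends on few counts in E6. *Cldn9* passed the filter on low counts only through the WT libraries. At 12 h of culture it had 5.39 to 7.41 CPM in 3 WT libraries against 0.123 and 0.211 CPM in 2 E6 libraries, and at 24 h 7.30 CPM against 0.069 and 0.123 CPM.

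**Figure D2:**
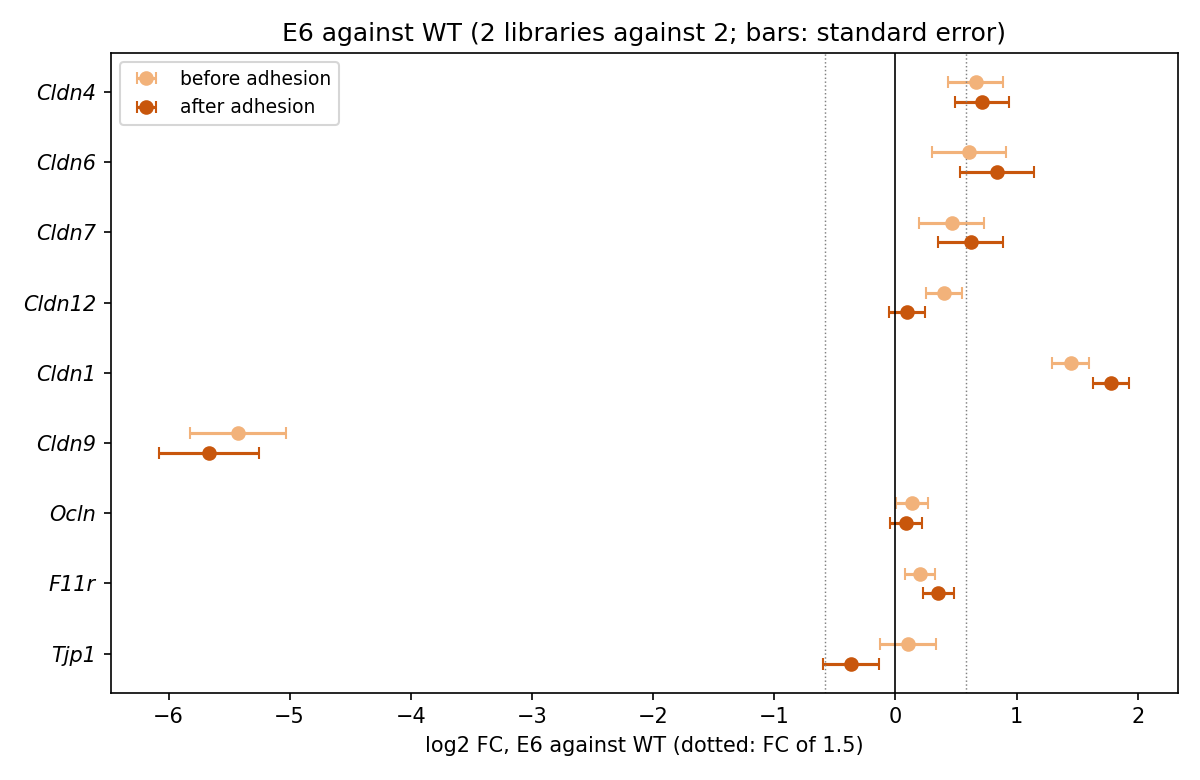
Fitted log2 FC of E6 against WT (horizontal axis) for the 9 tested genes before and after adhesion, with bars for the standard error and dotted lines at an FC of 1.5. *Cldn9* lies at -5.43 before and -5.67 after adhesion, *Cldn1* at 1.45 and 1.78, and the other genes between -0.37 and 0.84.

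*Cldn9* and *Cldn6* overlap in no annotated exon and end 137 bases apart, yet *Cldn6* was higher and *Cldn9* lower in E6. Within 50 kb of *Cldn9* lay 7 other genes, of which 6 were tested. By edgeR, with FDR from the Benjamini-Hochberg method, 1 of the 6 was called, *Hcfc1r1*, at 101 CPM in WT and 54.6 CPM in E6 (log2 FC -0.91 ± 0.13 SE, FDR = 0.00437). The log2 FC of the other 5 ranged from -0.33 for *Ccdc64b* to 0.72 for *Cldn6* itself, with 0.67 ± 0.22 (SE, FDR = 0.0756) for *Tnfrsf12a*. In this comparison 11.3% of all tested genes were called. The log2 FC was negative, as for *Cldn9*, for *Hcfc1r1* and *Ccdc64b*, and positive for the other 4.

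**Figure D3:**
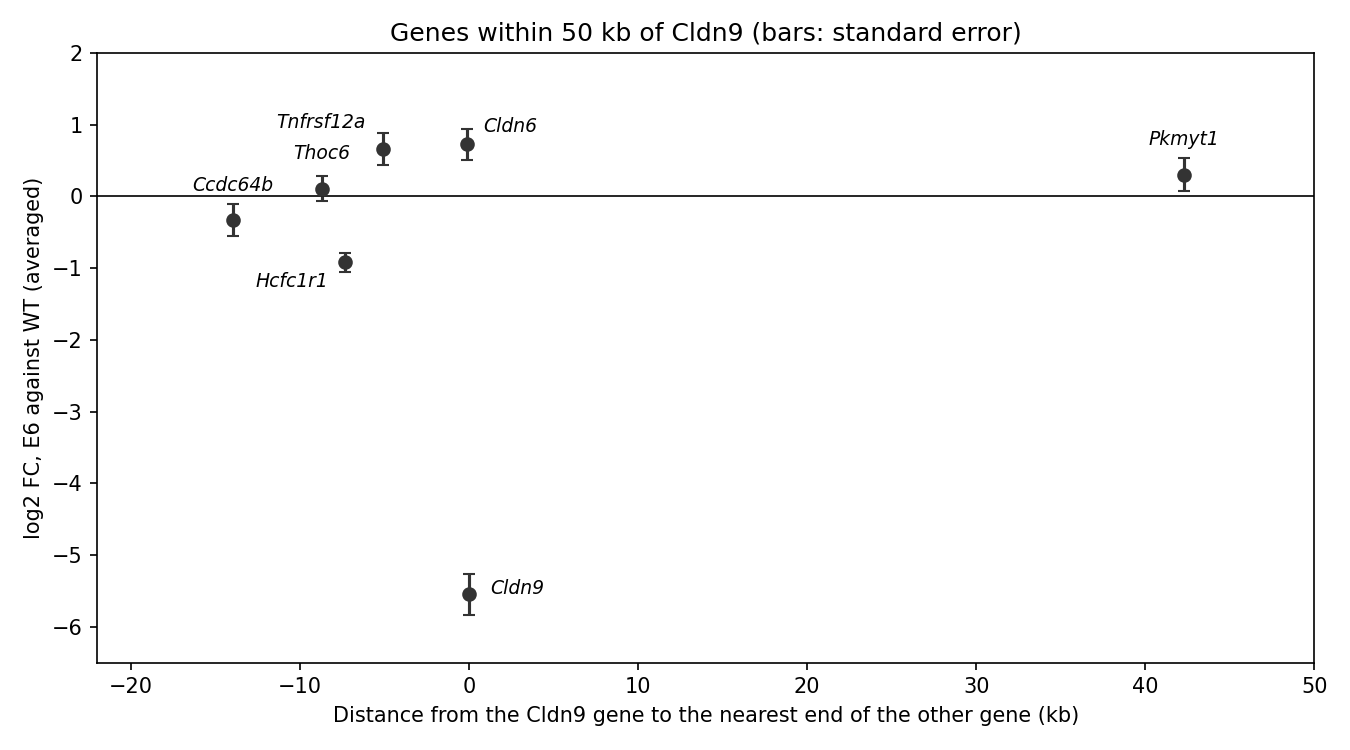
Fitted log2 FC of E6 against WT, averaged over conditions (vertical axis, bars for the standard error), of *Cldn9* and the 6 tested genes within 50 kb of it, against distance from *Cldn9* in kb. *Cldn9* lies at -5.55, *Hcfc1r1* at -0.91 and the others between -0.33 and 0.72.

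Claudin 3 was practically absent from the counts, in contrast to its neighbour claudin 4. Its 8 libraries held 5 counts in all, with at most 2 in any library and 0 in replicate 1 of each group, so every library was below 3 counts and a difference was not detectable at this depth. The highest level was 0.123 CPM, in E6 after replicate 2. *Cldn3* shares 40 exonic bases with *Wbscr25* on the opposite strand, and whether the counting used strand is not given in the sources used here. *Cldn13*, which lies within 50 kb of *Cldn4* on its other side, had 0 counts in every library, which allows up to 0.149 to 0.222 CPM in a library. Of the other genes within 50 kb of *Cldn4*, 2 were tested. *Wbscr27*, the nearest, was lower in E6 (6.00 CPM in WT and 2.34 CPM in E6, log2 FC -1.38 ± 0.21 SE, FDR = 0.00526 in edgeR's quasi-likelihood test), and *Wbscr25* was not called (log2 FC -0.75 ± 0.58 SE, FDR = 0.404). The median log2 FC of E6 against WT over 643 genes of chromosome 5, counting those whose mean log2 CPM was 2 or more, was 0.33, against -0.07 to 0.09 for the 6 other chromosomes that hold the genes described. *Cldn4*, at 0.69, and *Cldn12*, at 0.25, lie on chromosome 5.

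Set beside each other per kb of exon, the claudins had a steep order of levels. In WT before adhesion the means of 2 libraries were 306 ± 8.4 (SD) CPM per kb for *Cldn4*, 138 ± 6.7 for *Cldn6*, 51.0 ± 2.7 for *Cldn12*, 44.5 ± 0.34 for *Cldn7*, 4.70 ± 0.62 for *Cldn9*, 1.63 ± 0.12 for *Cldn1* and 0.029 ± 0.042 for *Cldn3*, and no 2 neighbours in this order overlapped. The order differed in E6 by the exchange of *Cldn1* and *Cldn9*. *Cldn1* had 4.41 ± 0.14 CPM per kb in E6 before and 7.26 ± 0.48 in E6 after adhesion, and *Cldn9* had 0.097 ± 0.070 and 0.085 ± 0.0001. In E6 after adhesion the libraries of *Cldn9* and *Cldn3* overlapped.

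The same 4 claudins led the claudin pool in all libraries, and the summed level was higher in every E6 library than in any WT library. *Cldn4* made up 52.8% to 60.4% of the summed claudin level (CPM per kb of exon) in the 8 libraries, *Cldn6* 18.5% to 27%, *Cldn12* 7.89% to 18.3% and *Cldn7* 6.83% to 8.44%. These 4 genes together held 96.5% to 98.6%. The lowest share of *Cldn6* and the highest of *Cldn12* both came from WT after replicate 1. *Cldn1* held 0.274% to 0.627% in WT and 0.528% to 1.02% in E6, and *Cldn9* held 0.756% to 1.12% in WT and 0.0056% to 0.018% in E6. The summed level was 333 to 584 CPM per kb in WT, with the lowest value in WT after replicate 1, and 745 to 853 CPM per kb in E6.

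**Figure D4:**
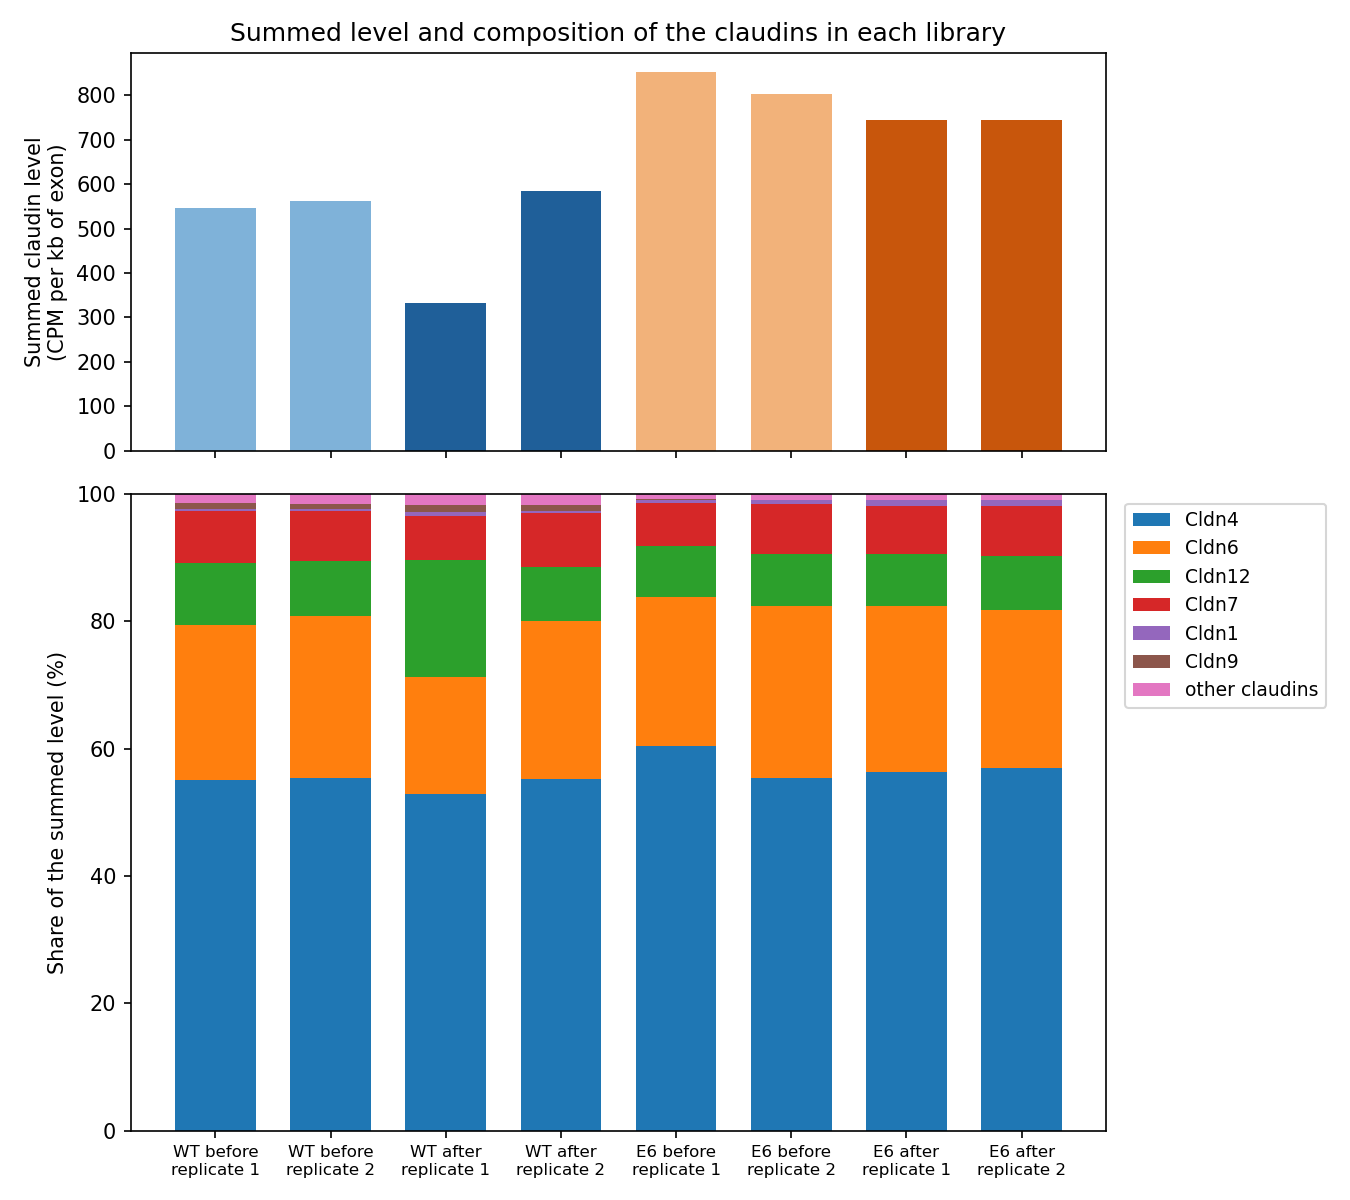
Upper bars give the summed claudin level in CPM per kb of exon, and lower stacked bars the share of each claudin in that sum (%), for each of the 8 libraries. *Cldn4* fills 52.8% to 60.4% of every bar, the sums are 745 to 853 in E6 and 333 to 584 in WT, and *Cldn9* holds 0.756% to 1.12% in WT and 0.0056% to 0.018% in E6.

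Of 17 other claudins with a row in the tables, 10 had 0 counts in every library, among them *Cldn5*, the claudin of endothelial junctions, and 12 never exceeded 3 counts. *Cldn23* was the best counted of those with a clear identity, at 9.58 to 17.7 CPM, and it was not called in E6 against WT (log2 FC -0.33 ± 0.18 SE, FDR = 0.240 in edgeR's test). The row named *Cldn25* had 78.4 to 137 CPM, but this is an older name of 2 genes in RefSeq, *Cldnd1* and *Cldn25-ps*, so its identity is uncertain and it was left out of the summed level. Its log2 FC of E6 against WT was 0.49 ± 0.16 (SE, FDR = 0.0746). Together the other claudins held 0.828% to 1.77% of the summed level.

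Among the partners of the claudins, *F11r* was higher in every E6 library than in any WT library, and *Ocln* and *Tjp1* overlapped between the cell types. Occludin, a membrane protein that regulates the junction, had 75.3 and 77.4 CPM in WT before, 61.6 and 82.5 CPM in WT after, 78.2 and 87.5 CPM in E6 before and 76.5 and 82.8 CPM in E6 after adhesion. Its WT and E6 ranges overlapped, and the log2 FC was 0.11 ± 0.094 (SE). Junctional adhesion molecule A, an immunoglobulin-like protein encoded by *F11r* that also binds leukocyte integrin, had 193 and 181 CPM in WT before, 130 and 171 CPM in WT after, 219 and 206 CPM in E6 before and 204 and 196 CPM in E6 after adhesion. The E6 libraries of *F11r* were all above the WT libraries by a narrow margin, with a log2 FC of 0.28 ± 0.089 (SE).

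Zonula occludens 1, the scaffold encoded by *Tjp1* that ties claudins to actin, had 583 and 593 CPM in WT before, 993 and 628 CPM in WT after, 593 and 657 CPM in E6 before and 649 and 680 CPM in E6 after adhesion. The cell types overlapped, and WT after replicate 1 stood far above all other libraries. The log2 FC of E6 against WT was -0.13 ± 0.17 (SE) with all libraries and 0.11 without WT after replicate 1, so its direction rested on that library. Per kb of exon and over all libraries, *Tjp1* averaged 86.0 CPM, *F11r* 70.5 CPM and *Ocln* 18.4 CPM, against 364 CPM for *Cldn4*. In WT after adhesion, the libraries of *Tjp1* overlapped with those of *Cldn6*, *Cldn6* with *F11r* and *F11r* with *Cldn12*, each the next gene in the order.

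A DE mRNA was one with a false discovery rate (FDR, Benjamini-Hochberg) under 0.05 and a fold change (FC) of at least 1.5, and 3 of the 9 tested genes met both limits in E6 against WT averaged over conditions (*Cldn1* and *Cldn4* higher, *Cldn9* lower), where 11.3% of all tested genes did. Before adhesion 2 did (*Cldn1* and *Cldn9*), against 5.01% of all tested genes, and after adhesion the same 2, against 8.91%. Because the genes were chosen with these differences known, nothing is read from the counts. The median log2 FC of the 9 was 0.28 in the averaged comparison, beside -0.01 over all tested genes. In the averaged comparison *Cldn1* and *Cldn9* met the limits whichever of the 8 libraries was left out, while *Cldn4* met them only without WT after replicate 2. Before adhesion *Cldn1* missed them in the 4 fits that left out a library before adhesion, and after adhesion both genes met them in 8 of 8 fits.

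The change with thymocyte adhesion was tested, although earlier results of these data were known when the genes were chosen. No gene of the set was called in either cell type, with *Cldn1* in E6 closest to the limits. *Cldn1* was 1.59-fold higher in E6 after than before adhesion (log2 FC 0.67 ± 0.14 SE, FDR = 0.0808 in edgeR's test, higher in 2 of 2 libraries). DESeq2 called it (log2 FC 0.69 ± 0.19 SE, adjusted p = 0.0132), and a fit of the E6 libraries alone also called 1 of the 9 genes. In edgeR's test *Cldn1* was not called with the GC correction (log2 FC 0.67 ± 0.14 SE, FDR = 0.0583). Nor was it with a replicate block (log2 FC 0.67 ± 0.15 SE, FDR = 0.151). When WT after replicate 1 was left out, its log2 FC in E6 was 0.70. In the main fit all groups share an estimate of the spread, so that WT library enters the SE and FDR in E6. In WT the log2 FC of *Cldn1* was 0.34 ± 0.15 (SE, FDR = 0.620), and averaged over the cell types it was 0.51 ± 0.11 (SE, FDR = 0.0708). The difference of the adhesion effects on *Cldn1* between E6 and WT was 0.33 ± 0.21 (SE, FDR = 0.988), so that a greater rise in E6 was not shown. Thymocyte markers also rose in E6 after adhesion, with 10 of 12 tested markers called beside 2.00% of all tested genes. In WT the log2 FC was positive for all 12, with 0 called by edgeR and 7 by DESeq2. These markers passed the filter on low counts only through libraries after adhesion, so the counts describe the co-culture and are no test. Whether RNA of thymocytes took part in the change of *Cldn1* was not tested.

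For adhesion in WT, 0 of the 9 genes were called by edgeR, with 0 at an unadjusted p under 0.05 and 0 called by DESeq2, and 0% of all tested genes were called. For adhesion in E6 it was 0 of 9, with 1 at an unadjusted p under 0.05 and 1 called by DESeq2 (*Cldn1* in both), beside 2.00% of all tested genes. Averaged over the cell types it was 0 of 9, with 2 at an unadjusted p under 0.05 (*Cldn1* and *F11r*) and 0 called by DESeq2, beside 1.89%. For the difference of the adhesion effects it was 0 of 9, with 0 at an unadjusted p under 0.05 and 0 by DESeq2, beside 0%. Of all 11672 tested genes, an unadjusted p under 0.05 in edgeR's test was found for 873 in WT and 813 in E6. The number was 1154 on average and 297 for the difference. The log2 FC in E6 was negative for 7 of the 9 genes and lay between -0.31 for *Cldn9* and 0.67 for *Cldn1*, with a median of -0.14 beside -0.02 over all tested genes. In WT it lay between -0.41 ± 0.31 (SE) for *Cldn6* and 0.51 ± 0.24 (SE) for *Tjp1*, with a median of -0.07 beside 0.02.

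The changes of the abundant claudins with adhesion in WT rested on 1 library. The log2 FC was -0.28 ± 0.23 (SE) for *Cldn4*, -0.41 ± 0.31 for *Cldn6* and -0.29 ± 0.27 for *Cldn7*, and it was 0.04, 0.03 and 0.11 without WT after replicate 1. The value of *Tjp1* likewise went from 0.51 ± 0.24 (SE) to 0.06. When WT after replicate 2 was left out, so that replicate 1 alone stood for WT after adhesion and was assumed to vary like the other groups, 4 of the 9 genes were called for adhesion in WT. In E6, where no library stood apart, *Cldn4* had a log2 FC of -0.23 ± 0.23 (SE), and *Cldn6* had -0.19 ± 0.30, *Cldn7* had -0.13 ± 0.27 and *Cldn12* had -0.15 ± 0.15. These SE come from a spread shared by all groups, WT after replicate 1 included, and do not measure the E6 libraries alone. Without that library the log2 FC in E6 was -0.21 for *Cldn4*, -0.16 for *Cldn6*, -0.10 for *Cldn7* and -0.12 for *Cldn12*.

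**Figure D5:**
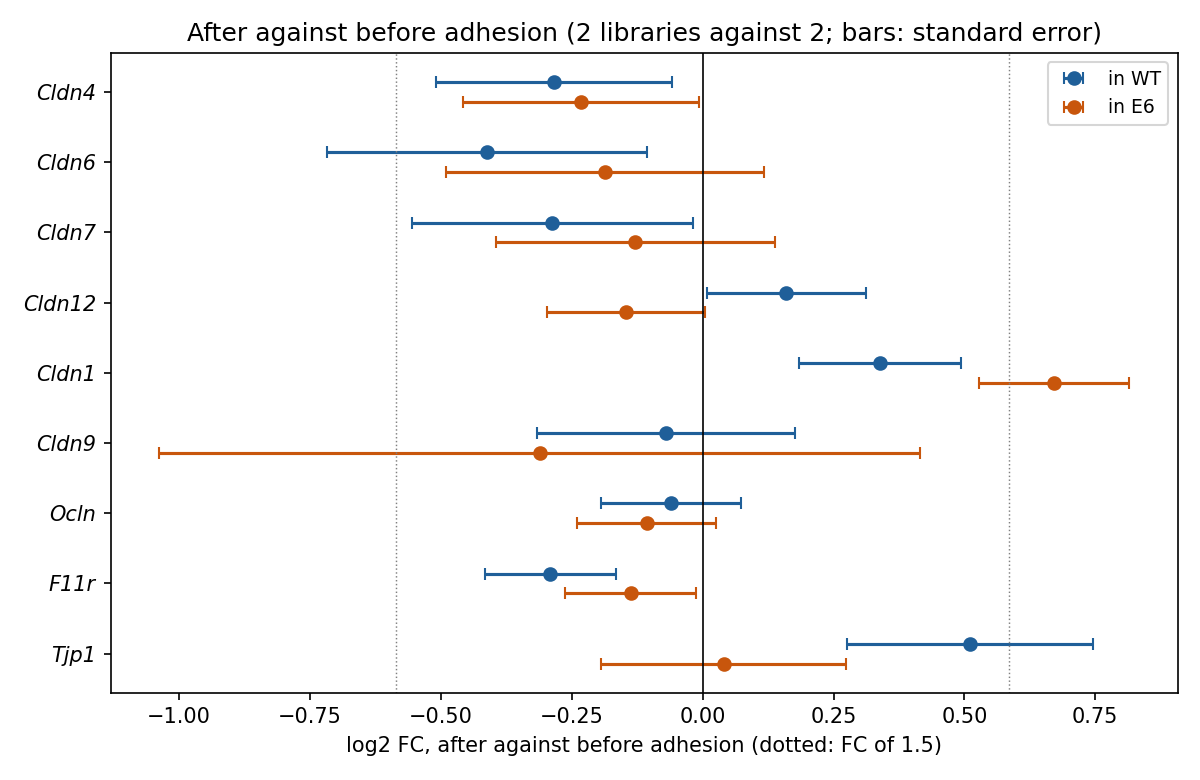
Fitted log2 FC after against before adhesion (horizontal axis) for the 9 tested genes in WT and in E6, with bars for the standard error and dotted lines at an FC of 1.5. Only *Cldn1* in E6, at 0.67, lies past a dotted line, and no gene was called.

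Other genes of the tight junction were taken from a list of further claudins and junction components, of which 56 had a row and 36 were tested. In E6 against WT averaged over conditions, 5 of the 36 were called, 1 higher and 4 lower, beside 11.3% of all tested genes. In edgeR's test 14 had an unadjusted p under 0.05, beside 4117 of all 11672 tested genes. DESeq2 called 6, and its share over all genes is not given here. The median log2 FC of the 36 was 0.06. The counts by edgeR are near the background, so they are no result about the list. *Ildr1*, which encodes angulin 2 of tricellular junctions, rose from 22.5 to 31.3 CPM in the WT libraries to 45.8 to 55.6 CPM in the E6 libraries (log2 FC 0.94 ± 0.11 SE, FDR = 0.00183 in edgeR's test). *Amot*, encoding angiomotin, which binds junction scaffolds and Yap, fell from 27.1 to 32.5 CPM in WT to 11.4 to 13.9 CPM in E6 (log2 FC -1.29 ± 0.094 SE, FDR = 0.00042).

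*Mpdz*, encoding the multi-PDZ scaffold MUPP1 that binds claudins, fell from 47.8 to 58.6 CPM in WT to 28.9 to 39.1 CPM in E6 (log2 FC -0.63 ± 0.094 SE, FDR = 0.00492). The WT and E6 libraries of *Ildr1*, *Amot* and *Mpdz* did not overlap. A pair of polarity genes with few counts were lower in E6 as well. Both passed the filter on low counts only through the WT libraries, so their values are a description and no test. *Pard6g*, of the Par6 family that binds atypical protein kinase C, had 0.888 to 1.74 CPM in WT and 0.211 to 0.490 CPM in E6 (log2 FC -1.88 ± 0.34 SE, FDR = 0.00993). *Pard3b*, related to the polarity protein Par3, had 0.397 to 1.06 CPM in WT and 0.053 to 0.345 CPM in E6, in part below 3 counts (log2 FC -2.32 ± 0.66 SE, FDR = 0.0461). When single libraries were left out in turn, *Ildr1* and *Amot* were called in 8 of 8 fits, *Mpdz* in 7 (not without E6 before replicate 1), *Pard6g* in 4 and *Pard3b* in 2. *Pard6g* was lost without WT before replicate 1, E6 before replicate 2 or either library of E6 after adhesion, and *Pard3b* was kept only without a library of WT after adhesion.

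Before adhesion 3 of the 36 were called (*Ildr1* higher, *Amot* and *Mpdz* lower), beside 5.01% of all tested genes. In edgeR's test 9 had an unadjusted p under 0.05, beside 2521 of all 11672 tested genes. After adhesion 2 were called (*Ildr1* higher, *Amot* lower), beside 8.91% of all tested genes. There 10 had an unadjusted p under 0.05, beside 3464 of all 11672. These counts are near the background. With single libraries left out, the calls before adhesion held in 5 of 8 fits for *Amot* and in 2 for *Ildr1* and *Mpdz*, and those after adhesion in 6 for both genes, not without E6 after replicate 1 or 2. In all 4 adhesion comparisons edgeR called 0 of the 36, with 1 at an unadjusted p under 0.05 in the averaged comparison and 0 in the 3 others, and DESeq2 called 0. Of all 11672 tested genes, edgeR called 0% to 2.00% in these comparisons, and 297 to 1154 had an unadjusted p under 0.05. Without WT after replicate 2, counts rose to 7 for adhesion in WT, 1 for the averaged comparison and 7 for the difference of the effects.

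Transcription factors that set epithelial or mesenchymal programmes, some of which are known to act on claudin genes, were listed as well, and 14 of 19 were tested. In E6 against WT averaged over conditions 3 of the 14 were called by edgeR and 3 by DESeq2, beside 11.3% of all tested genes. The list was chosen with earlier results of these data known, so nothing is read from this or the later counts of these factors. *Grhl1*, a grainyhead-like factor, rose from 2.73 to 4.31 CPM in WT to 6.56 to 9.80 CPM in E6 (log2 FC 1.19 ± 0.16 SE, FDR = 0.0034 in edgeR's test). Its relative *Grhl3* fell from 1.13 to 3.70 CPM in WT to 0.368 to 1.22 CPM in E6 (log2 FC -1.86 ± 0.35 SE, FDR = 0.0116), with overlap between a WT and an E6 library. *Klf4*, a factor of epithelial differentiation, fell from 235 to 327 CPM in WT to 141 to 182 CPM in E6 (log2 FC -0.86 ± 0.082 SE, FDR = 0.000981). Leaving out single libraries kept the calls of *Grhl1* and *Klf4* in 8 of 8 fits and of *Grhl3* in 5, not without WT before replicate 2 or either library of E6 after adhesion. Before adhesion edgeR called 1 (*Klf4*, lower) and DESeq2 3, beside 5.01% of all tested genes in edgeR. After adhesion edgeR called 2 (*Grhl1* higher, *Klf4* lower) and DESeq2 3, beside 8.91%. Leaving out single libraries, the call of *Klf4* before adhesion held in 2 of 8 fits and those after adhesion in 6.

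With adhesion, 1 of the 14 factors was called in E6 and on average, beside 2.00% and 1.89% of all tested genes, and 0 in WT, where 1 had an unadjusted p under 0.05 and DESeq2 called 0. *Zeb1*, a repressor of epithelial genes, had 0.276 and 0.687 CPM in E6 before and 2.70 and 2.70 CPM in E6 after adhesion (log2 FC 2.36 ± 0.43 SE, FDR = 0.0428 in edgeR's test). In WT it had 1.52 and 1.11 CPM before and 2.66 and 2.08 CPM after adhesion (log2 FC 0.86 ± 0.39 SE, FDR = 0.620). The averaged log2 FC was 1.61 ± 0.29 (SE, FDR = 0.042), and the difference of the adhesion effects was 1.5 ± 0.59 (SE, FDR = 0.988). The call of *Zeb1* in E6 was kept in 2 of 8 fits that left out a library, those without a library of WT after adhesion, and lost without the filter on low counts. The summed thymocyte markers moved with it, from 0.264 and 0.966 to 87.9 and 109 CPM in E6, and their part in the rise of *Zeb1* was not tested.

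Of 10 genes whose proteins bind, cleave or phosphorylate junction proteins, such as *Epcam*, the serine protease gene *St14* with its inhibitors *Spint1* and *Spint2*, and *Cdh1*, all were tested and 0 were called by edgeR or by DESeq2 in any of the 7 comparisons, with 0 to 3 at an unadjusted p under 0.05. Of all tested genes edgeR called 11.3% in E6 against WT averaged over conditions, 5.01% before and 8.91% after adhesion. In the adhesion comparisons it called 0% to 2.00%. In E6 against WT averaged over conditions 3 of the 10 had an unadjusted p under 0.05 in edgeR's test, beside 4117 of all 11672 tested genes. These counts are near the background and are no result about the 10 genes. Their log2 FC ranged from -0.21 to 0.38, with a median of 0.18. *Epcam*, whose product binds claudin 7, had 545 to 603 CPM over the 8 libraries.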

How the data were processed

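The authors sequenced paired-end libraries on an Illumina instrument, mapped them with STAR 2.5.0a (build mm10) and deposited raw read counts per gene symbol made with HTSeq, 1 count table for each of the 8 libraries. The annotation and the strand setting of the counting are not given in the sources used here. The labels name a TruSeq Stranded mRNA kit and the methods a Stranded Total RNA kit, which could change the share of RNA without a poly(A) tail. The authors compared groups with DESeq2.

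Groups and replicates were taken from the labels. The 10 genes and all gene lists (other claudins, other tight junction genes, transcription factors, genes acting on junction proteins and cell type markers) were chosen with earlier results of these data known. Of 24052 symbols, 22748 matched GENCODE vM21 directly and 916 through an older symbol, which gave exon lengths, GC content and positions, and 388 did not match. In E6 before replicate 1, 18 symbols that had been turned into dates were restored. CPM used the sum of gene counts, 13506610 to 20145154 in a library. The filter filterByExpr left 11672 genes. Counts were fitted with edgeR 4.0.16 (limma 3.58.1, R 4.3.3) by the quasi-likelihood test with TMM scaling and 1 mean for each of the 4 groups over the 8 libraries. A prior count of 2 entered the log2 CPM behind the GC slopes, the GC correction and the correlations of same-numbered libraries, and not the fits. A gene was called at an FDR (Benjamini-Hochberg over all tested genes) under 0.05 and an FC of at least 1.5, and the SE is the log2 FC divided by the square root of F. The fits were tested on simulated data before use. The ratio of pooled counts of *Cldn9* has an exact binomial 95% interval.

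Named were the 10 genes, every gene of the lists called in E6 against WT or in adhesion when averaged, the 2 largest called rises and falls elsewhere and other claudins with a mean of at least 1 CPM. Genes near *Cldn9* and *Cldn4* were named by position after their values were seen. Promoter sequences came from RefSeq on GRCm38.p6 and covered 9 of the 10 genes. Alternatives were RLE scaling, the DESeq2 1.42.0 Wald test, no filter on low counts, a replicate block, a GC correction of each library (lowess, span 0.3) alone and with the block, a fit of only the libraries compared, FDR without the FC limit, leaving out each library in turn and, for claudin shares, no division by length.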

Additional observations from a re-analysis of the deposited data

How the results depend on the processing

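With 2 libraries a group, depth was no limit for the abundant claudins, while *Cldn3* and, in E6, *Cldn9* were at the limit of counting. Scaling by RLE, testing without the filter on low counts and the GC correction left every count of called listed and other tight junction genes within 1.5 times the main one. No label says that replicate numbers pair the samples. The deviations of same-numbered libraries correlated at 0.19 for WT before and WT after adhesion and at -0.056 to 0.024 for the other pairs of groups. With 2 libraries a group, such correlations cannot exclude a shared batch. A replicate block gave 4 of the 10 listed genes and 5 other tight junction genes called in E6 against WT averaged over conditions, against 3 and 5 without it, and no other count of these lists moved by over 1.5 times. The calls of *Zeb1* with adhesion in E6 and on average, the only ones among the transcription factors, were lost under the block and without the filter on low counts, so that these counts went from 1 to 0. DESeq2 called 3 transcription factors in E6 against WT before adhesion (1 by edgeR) and 3 after it (2).

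Without the FC limit, 8 other tight junction genes were called in the averaged E6 against WT comparison (5 with it). A fit of only the libraries compared called 4 listed and 6 other genes before adhesion (2 and 3 in the main fit), 0 and 0 after adhesion (2 and 2) and 1 listed gene for adhesion in E6 (0). DESeq2 called 4 listed genes after adhesion (2) and 1 for adhesion in E6 (0). These fits differ by construction in the samples or the limit, and for DESeq2 the cause was not tested. Leaving out each library in turn, with a lone library assumed to vary like the other groups, called 2 to 5 listed and 3 to 8 other genes for E6 against WT averaged, 1 to 4 and 0 to 6 before adhesion, and 2 to 6 and 0 to 12 after it. For adhesion it called 0 to 4 listed and 0 to 7 other genes in WT, 0 to 1 listed genes in E6, 0 to 1 listed and 0 to 1 other genes on average, and 0 to 3 and 0 to 7 for the difference of the effects. All calls above 0 for adhesion in WT, on average and for the difference came from the fit without WT after replicate 2, which leaves WT after replicate 1 alone.

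The averaged adhesion log2 FC of *Cldn7* ranged from -0.49 to 0.0024 over these fits, that of *Cldn9* from -0.44 to 0.32 and that of *Cldn12* from -0.10 to 0.10, so their signs were not fixed. *Cldn12* also went from 0.01 to -0.0391 with the GC correction and -0.039 with GC correction and block, and the cause was not tested. *Tjp1* in E6 against WT averaged over conditions went from -0.13 to 0.11 without WT after replicate 1. The summed claudin level not divided by length also held the *Cldn25* row, so its shares differ from those per kb by more than length. In that sum, mean shares were 45.7% for *Cldn4*, 18.9% for *Cldn6*, 18.1% for *Cldn12*, 6.74% for *Cldn7*, 1.23% for *Cldn1* and 0.294% for *Cldn9*.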
